A study of Mus musculus with 2 samples.

Results

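Sterol and fatty acid synthesis was followed through 32 genes on 2 whole-genome Affymetrix arrays of mouse splenic antigen-presenting cells (APCs). The genes form a sterol branch of 19 (18 enzymes and the sterol carrier gene Stard4), 5 regulators and a fatty acid branch of 8. A gene was taken from the probe sets that carry its symbol alone, by the one with the highest mean log2 signal. Of the 32 genes 31 were measured, among 12884 measured genes of 18161 named on the arrays, and Acat2 is not analysed here. All 31 gave signals above the floor of 10.3 on both arrays, and 24 of them had 100 or more on both.

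One array holds APCs cultured overnight with P25, a peptide of a mycobacterial antigen, and the other holds APCs cultured with medium and labelled non-stimulated. Both cultures contained CD4+ T cells carrying the P25 T cell receptor, which recognises this peptide on MHC class II. An effect of P25 on the APCs and one that comes through T cells that met their peptide cannot be told apart. The APCs came from spleens of wild-type C57BL/6 female mice of 10 weeks and were enriched after culture, and each array was hybridised with RNA mixed from 3 separate experiments. There is thus no spread between replicates and no p-value, and every ratio below describes these 2 arrays.

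Cells build cholesterol from acetyl-CoA through mevalonate, farnesyl diphosphate, squalene and lanosterol, and build fatty acids from the same acetyl-CoA through malonyl-CoA. Both pathways are controlled by SREBP transcription factors, which are made as membrane proteins of the endoplasmic reticulum, held there by INSIG when sterols are plentiful and escorted by SCAP to the Golgi for cleavage when sterols are scarce. Srebf2 encodes the form that acts mainly on sterol genes, and Srebf1 encodes forms that act more on fatty acid genes. Activated lymphocytes are known to raise lipid synthesis when they grow and divide.

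Most genes of both branches were higher with P25. The genes were chosen with earlier results of these data known, so the shares below describe them and test nothing. Of the 31 measured genes 29 had a log2 ratio of P25 over medium above 0 on the brightest probe set, beside 6621 of all 12884 measured genes. Of the 31 genes 11 were at least 2-fold higher (35.5%), where 9.43% of all measured genes were. None was at least 2-fold lower, against 7.22% of all genes. The median log2 ratio of the 31 genes was 0.83 (1.78-fold), beside 0.02 for all measured genes. At 1.5-fold the count was 20 of 31 (64.5%), where the share of all genes was 20.9%. Among genes with signals of at least 100 on both arrays, 9 of 24 were at least 2-fold higher and 9.47% of all such genes were.

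**Figure D1:**
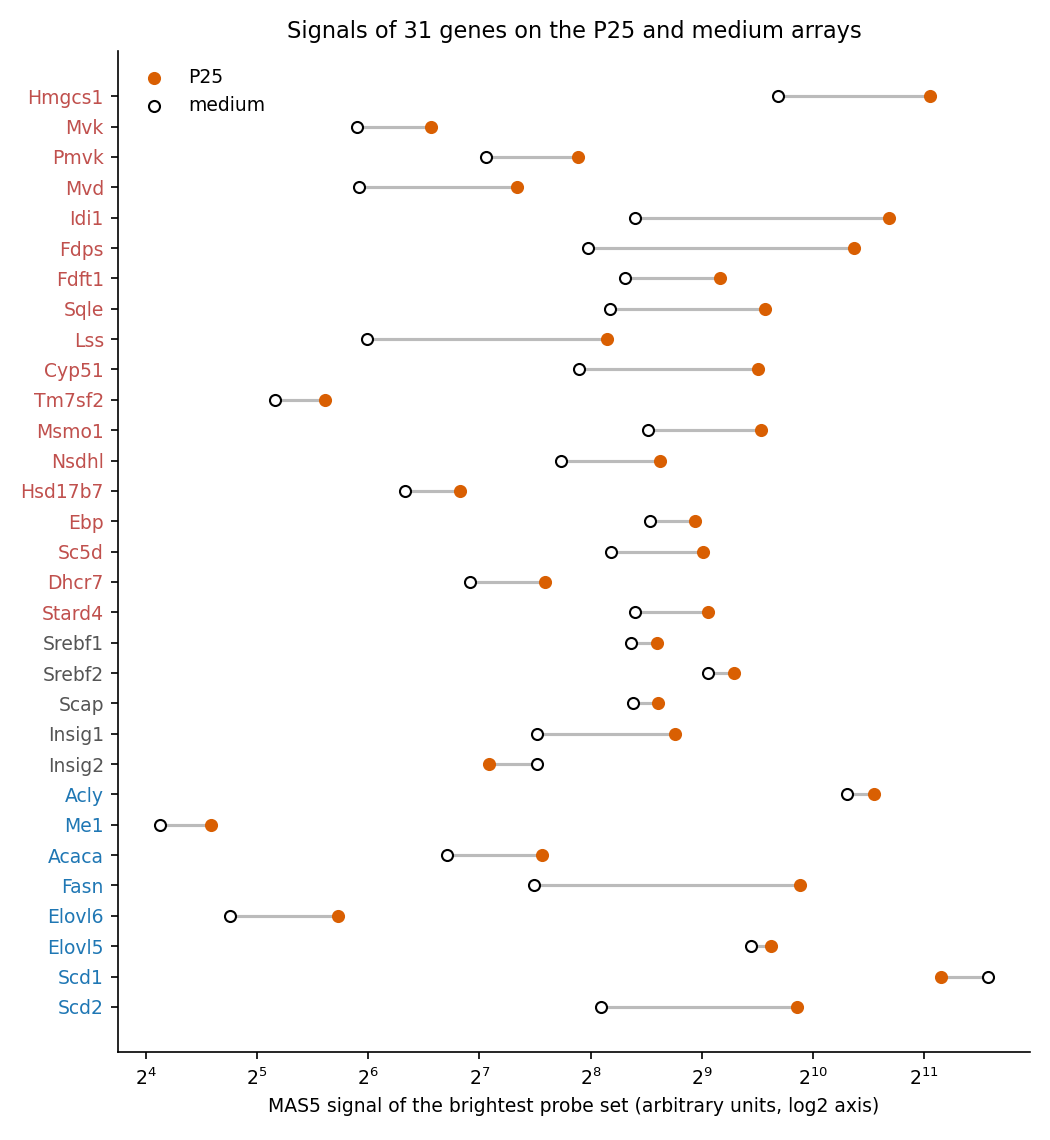
MAS5 signal (log2 axis) of the brightest probe set of each of the 31 measured genes, in pathway order, on the P25 array (filled) and the medium array (open). Gene names are red for the sterol branch, grey for regulators and blue for the fatty acid branch. The P25 signal is the higher one in 29 genes and the lower one in Insig2 and Scd1.

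The scale of each array bears on these counts. Both arrays were scaled to one median of the probe sets above the floor on at least 1 array. Alternatively, they were scaled to one level of 18 hybridization spike-in probe sets. The median over all genes moved further from 0, to log2 ratios of 0.15 and 0.16, against 0.02 on the deposited scale. The share of all genes at least 2-fold higher then came to 12.4% and 12.5%, and the share at least 2-fold lower to 5.06% and 4.94%, while the count of sterol and fatty acid genes became 14 under both. The 3 genes added were Nsdhl, Acaca and Elovl6. Probe sets of one gene gave a gauge of technical disagreement: the log2 ratios of the brightest pair differed with an SD of 0.58 over 5297 genes. Each array is its own hybridization, so batch and P25 cannot be told apart.

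Along the mevalonate steps, 4 of 6 measured genes passed 2-fold with P25, beside 9.43% of all measured genes, and the median of the 6 was 2.63-fold. This group and those below are small, so their counts are given as values only. Hmgcs1, which makes HMG-CoA in the cytosol, had a signal of 2126 with P25 and 826 with medium, or 2.57-fold higher. Of its 4 other probe sets 3 gave log2 ratios of 1.40 to 1.59, and the dim one (39.9 against 31.4) gave 0.34. The 250 bases before the RefSeq start of Hmgcs1 (GRCm38.p6, chr13:119690101-119690350, plus strand) are shown because they hold the one match to the letters of a sterol regulatory element, the site SREBP binds, found among these genes. Capitals mark that match (letters TCACNCCAC) and the NF-Y boxes (letters CCAAT), each on either strand.

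Hmgcs1: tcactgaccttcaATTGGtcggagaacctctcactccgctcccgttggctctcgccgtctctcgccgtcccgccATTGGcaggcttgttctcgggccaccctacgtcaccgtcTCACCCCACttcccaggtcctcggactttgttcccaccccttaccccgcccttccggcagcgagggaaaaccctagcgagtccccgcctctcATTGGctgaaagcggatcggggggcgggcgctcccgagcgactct

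The kinase genes Mvk and Pmvk, which phosphorylate mevalonate in 2 successive steps, stayed under 2-fold. Mvk had 94.9 with P25 and 59.8 with medium (1.59-fold), and 0.26 in log2 ratio on its other probe set. Pmvk had 237 with P25 and 133 with medium (1.78-fold). Mvd, whose decarboxylase yields isopentenyl diphosphate, had 162 with P25 and 60.4 with medium, 2.69-fold higher, and its other probe set gave a log2 ratio of 1.21.

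Idi1 and Fdps, the next steps, had the highest ratios of the sterol branch. Idi1, which isomerises isopentenyl diphosphate, had 1640 with P25 and 337 with medium, 4.86-fold higher, and its other probe set gave 2.76 in log2 ratio (1280 against 189). Fdps, which joins these units to farnesyl diphosphate, the branch point to sterols and to protein prenylation, had 1321 with P25 and 252 with medium, 5.25-fold higher. Its other probe set lay below the floor on both arrays, so Fdps rests on 1 probe set. Of all measured genes 0.73% had a higher ratio than Idi1 and 0.55% a higher one than Fdps. The bases before the start of Idi1 (GRCm38.p6, chr13:8885356-8885605, plus strand) are shown with its NF-Y boxes in capitals, as an example of a strongly differing gene with no match to the sterol regulatory element letters.

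Idi1: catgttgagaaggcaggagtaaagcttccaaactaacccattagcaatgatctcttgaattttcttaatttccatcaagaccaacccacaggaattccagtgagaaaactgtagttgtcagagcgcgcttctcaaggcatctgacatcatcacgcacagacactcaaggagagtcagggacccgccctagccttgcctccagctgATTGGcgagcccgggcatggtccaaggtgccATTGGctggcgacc

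Of the 3 genes that carry farnesyl diphosphate to lanosterol, 2 passed 2-fold with P25, beside 9.43% of all measured genes. The median of the 3 was 2.63-fold. Fdft1, squalene synthase and the first step given over to sterols, had 573 with P25 and 318 with medium (1.80-fold), and 0.98 in log2 ratio on a second probe set. Sqle, squalene epoxidase and a rate-controlling step, had 762 with P25 and 289 with medium, 2.63-fold higher on its single probe set. Lss, which closes the rings of lanosterol, had 283 with P25 and 63.7 with medium, 4.44-fold higher. Its brightest probe set is of a type that can match more than 1 transcript (suffix _s_at), and the plain one gave 2.09-fold (71.4 against 34.3).

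The 8 genes from lanosterol to cholesterol all had log2 ratios above 0 on their brightest probe sets. At least 2-fold higher were 2 of 8, beside 9.43% of all measured genes, and the median was 1.68-fold. Cyp51, the lanosterol demethylase, had 726 with P25 and 238 with medium, 3.05-fold higher, with 1.30 in log2 ratio on a second probe set and 0.26 on a dim one (22.9 against 19.1). Msmo1, which acts in a later removal of methyl groups from the sterol ring, had 740 with P25 and 366 with medium, 2.02-fold higher and just past the threshold. A dim second probe set of Msmo1 went the other way, with 19.1 with P25 and 23.9 with medium, so its direction depends on the probe set. Nsdhl and Hsd17b7 act with Msmo1 in the same removal. Nsdhl had 395 with P25 and 213 with medium (1.85-fold). Hsd17b7 had 113 with P25 and 80.4 with medium (1.41-fold), while its dimmest probe set above the floor on both arrays gave 2.30-fold (57.2 against 24.8).

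The remaining sterol enzymes stayed between 1.33-fold and 1.77-fold higher. Tm7sf2, a sterol reductase, had 49.0 with P25 and 35.9 with medium (1.37-fold). Ebp, which shifts a ring double bond, had 492 with P25 and 370 with medium (1.33-fold), the lowest ratio of the sterol branch. Sc5d, the next desaturase, had 516 with P25 and 291 with medium (1.77-fold), but 54.9 and 61.9 on a second probe set. Dhcr7, which can make cholesterol in the last step, had 193 with P25 and 121 with medium (1.60-fold). Stard4, a protein that carries sterols between membranes, had 532 with P25 and 337 with medium (1.58-fold), and its 2 other probe sets gave log2 ratios of 0.68 and 1.48.

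**Figure D2:**
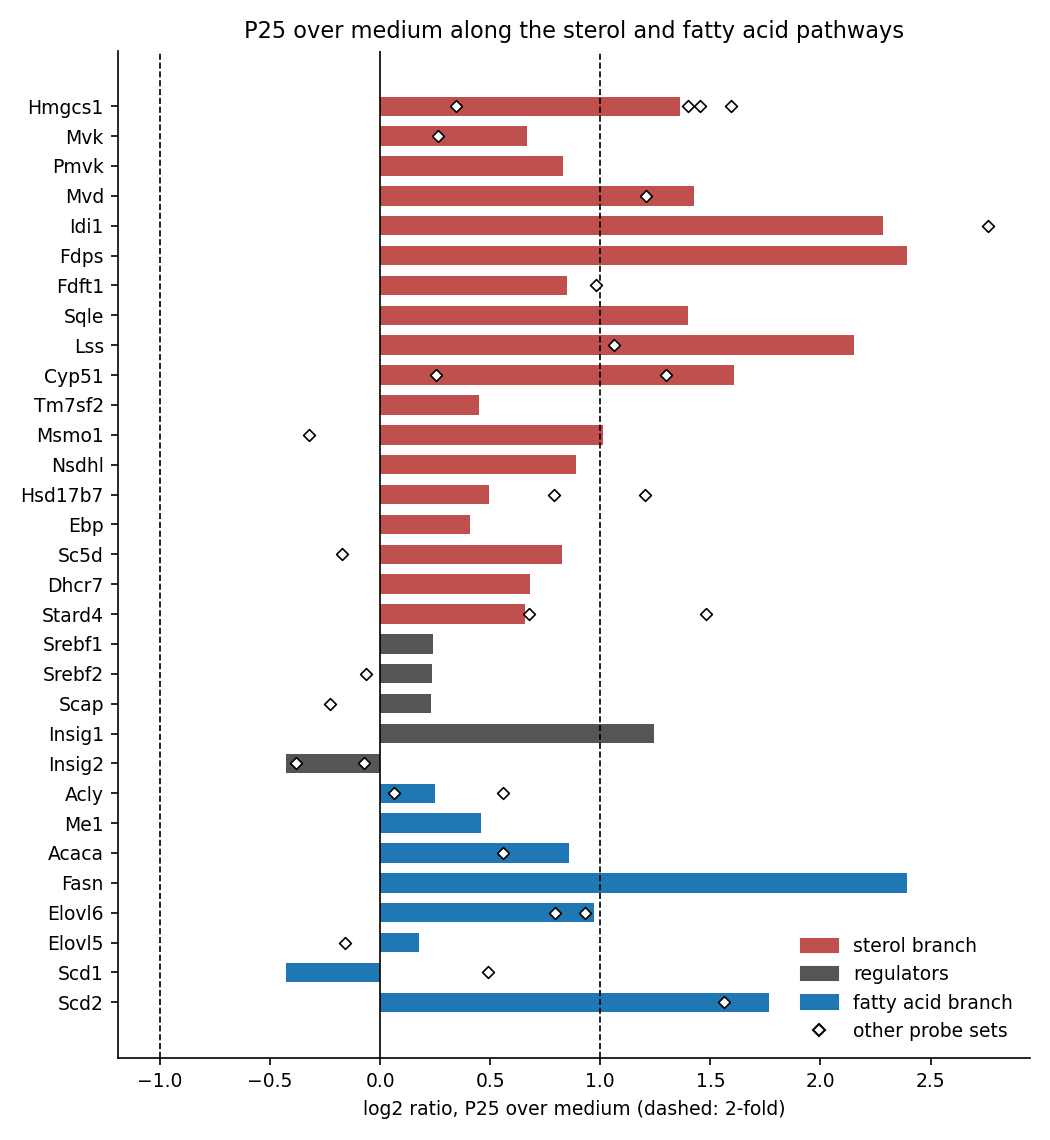
log2 ratio of P25 over medium for the 31 measured genes in pathway order. Bars give the brightest probe set, diamonds the other probe sets above the floor with both P25 and medium, and dashed lines 2-fold. All 18 sterol branch bars lie above 0, and the early steps Idi1 and Fdps and the later Lss reach 2.15 to 2.39.

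Among the 5 regulators Insig1 alone was at least 2-fold higher, beside 9.43% of all measured genes. Insig1, which retains the SCAP and SREBP complex in the endoplasmic reticulum and is itself a known SREBP target, had 434 with P25 and 183 with medium, 2.37-fold higher on its single probe set. Insig2, its paralog with the same retention role, had 136 with P25 and 183 with medium, a log2 ratio of -0.43, and its 2 other probe sets gave -0.38 and -0.08. The log2 ratios of the pair had opposite signs, and all 3 probe sets of Insig2 lay below 0. The sensors and factors themselves stayed near the level of all genes. Srebf1 had 388 with P25 and 329 with medium (log2 ratio 0.24), Srebf2 627 and 532 (0.24), and Scap 390 and 333 (0.23). Second probe sets of Srebf2 and Scap gave -0.06 and -0.23. These are transcript levels, and cleavage of SREBP proteins was not measured. The bases before the start of Insig1 (GRCm38.p6, chr5:28071162-28071411, plus strand) are shown for comparison with the enzymes, with the NF-Y box in capitals.

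Insig1: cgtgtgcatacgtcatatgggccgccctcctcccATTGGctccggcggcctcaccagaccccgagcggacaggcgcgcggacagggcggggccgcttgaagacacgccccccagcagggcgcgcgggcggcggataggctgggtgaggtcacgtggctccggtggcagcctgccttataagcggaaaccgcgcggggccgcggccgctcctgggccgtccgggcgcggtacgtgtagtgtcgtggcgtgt

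The fatty acid branch was uneven, with log2 ratios from -0.43 to 2.39. Of its 8 genes 2 passed 2-fold upward, beside 9.43% of all measured genes. Acly, which cleaves citrate to cytosolic acetyl-CoA for both pathways, had 1501 with P25 and 1265 with medium (1.19-fold), and its other 2 probe sets above the floor gave log2 ratios of 0.06 and 0.56. Me1, a source of NADPH, was dim, with 24.0 with P25 and 17.5 with medium (1.37-fold). Acaca, acetyl-CoA carboxylase and the committed step, had 190 with P25 and 105 with medium (1.81-fold), and 0.56 in log2 ratio on its other probe set.

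Fasn, the synthase that builds palmitate, had the highest ratio of all 31 genes. Its single probe set had 944 with P25 and 180 with medium, 5.25-fold higher, and 0.54% of measured genes had a higher ratio. The bases before its start (GRCm38.p6, chr11:120824548-120824797, minus strand) are shown because its NF-Y boxes include an overlapping pair on opposite strands.

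Fasn: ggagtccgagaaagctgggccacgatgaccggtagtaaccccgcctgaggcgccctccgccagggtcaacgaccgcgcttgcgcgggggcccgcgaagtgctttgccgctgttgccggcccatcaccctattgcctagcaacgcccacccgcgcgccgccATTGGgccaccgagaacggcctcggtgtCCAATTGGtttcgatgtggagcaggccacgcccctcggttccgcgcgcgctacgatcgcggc

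The genes that lengthen and desaturate fatty acids ranged from below 0 to well past 2-fold. Elovl6, which elongates palmitate, had 52.9 with P25 and 27.0 with medium, 1.96-fold and just under the threshold, with 0.79 and 0.93 in log2 ratio on its other probe sets. Elovl5, which elongates polyunsaturated fatty acids, had 788 with P25 and 697 with medium (1.13-fold), and -0.16 in log2 ratio on its other probe set. The stearoyl-CoA desaturase genes Scd1 and Scd2, which make monounsaturated fatty acids, differed from each other. Scd2 had 928 with P25 and 273 with medium, 3.40-fold higher, and 1.56 in log2 ratio on its second probe set (150 against 50.8). Scd1 had 2268 with P25 and 3054 with medium, a log2 ratio of -0.43, but its second probe set gave 0.49 (314 against 224), so the arrays do not settle its direction. Whether a probe set as bright as the first one of Scd1 still follows a change was not tested.

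Set side by side, the sterol branch had a median log2 ratio of 0.87 (n = 18, SD between genes 0.63) and the fatty acid branch one of 0.66 (n = 8, SD between genes 0.91). The medians differed by 0.21, and with 1 array per condition this difference was not tested. On the brightest probe sets the lowest sterol branch gene was Ebp at 0.41, and Scd1 at -0.43 (0.49 on its second probe set), Elovl5 at 0.18 and Acly at 0.25 lay below it in the fatty acid branch. By the median over probe sets the lowest gene of both branches was Sc5d of the sterol branch at -0.17, with Scd1 at 0.03. The regulators had a median of 0.24. When the floor was raised to the 60th percentile the difference between the branches came to 0.42, and with plain probe sets alone to 0.03.

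**Figure D3:**
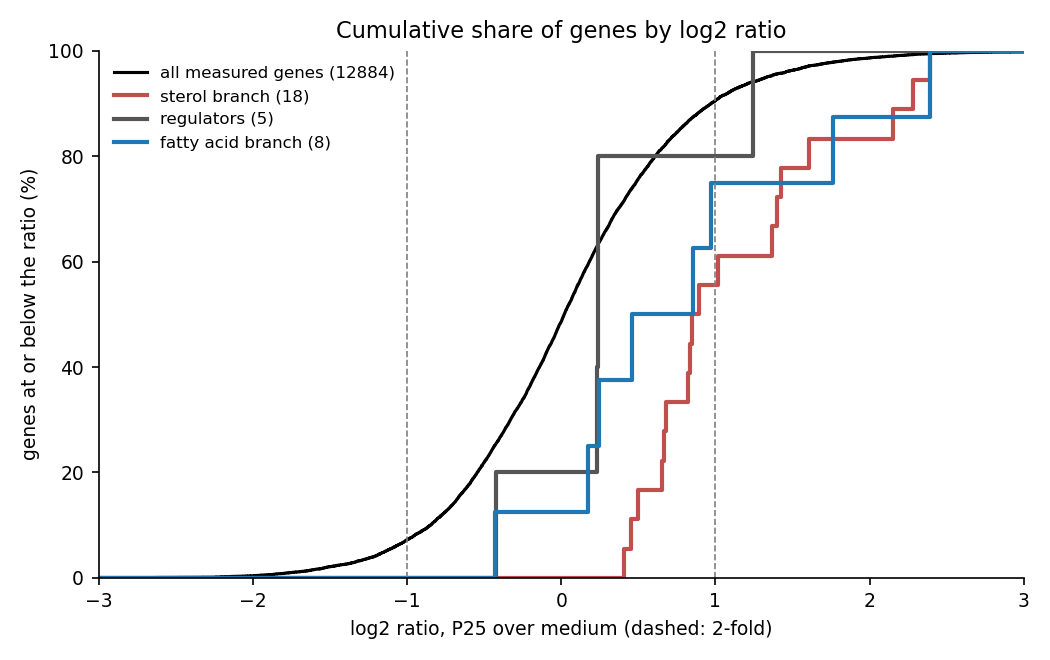
Cumulative share of genes (%) at or below each log2 ratio of P25 over medium, for all 12884 measured genes and the 3 groups. The sterol branch starts at 0.41, where most of all measured genes already lie below. Of the regulators Srebf1, Srebf2 and Scap lie together at 0.23 to 0.24, with Insig2 below 0 and Insig1 past 2-fold.

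Agreement between probe sets varied among the genes. Of 20 genes with 2 or more probe sets above the floor with both P25 and medium, 14 had all of them on one side of 0 and 6 had both signs (Msmo1, Sc5d, Srebf2, Scap, Elovl5 and Scd1). Of the 11 genes past 2-fold, Mvd, Idi1, Lss and Scd2 passed it on every such probe set, Fdps, Sqle, Insig1 and Fasn had 1 such probe set, and Hmgcs1, Cyp51 and Msmo1 each had a dim probe set under 2-fold.

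Further genes of the same pathways were read from lists. These lists, and the marker and cell cycle lists below, were also chosen with earlier results of these data known. Of all measured genes 9.43% were at least 2-fold higher and 7.22% at least 2-fold lower. Counts of 1 or none in these short lists lie near such shares and are given as values only. Of 10 measured genes of other sterol and prenyl steps, 1 passed 2-fold upward and none downward, and the list's median log2 ratio was 0.29. The highest were Rabggtb, a subunit of the enzyme that prenylates RAB proteins, at 2.29-fold (497 with P25, 217 with medium), and Hsd17b12, a reductase of fatty acid elongation, at 1.88-fold. Hsd17b12 is counted again among the other fatty acid synthesis genes below. The lowest were Npc2 and Npc1, which export cholesterol from lysosomes, at log2 ratios of -0.39 and -0.97 (Npc1 had 87.7 with P25 and 172 with medium). Of 11 genes of SREBP cleavage, transport and turnover, none passed 2-fold in either direction, and the median was 0.11. Vcp (0.82) and Ufd1 (0.48), which extract proteins for degradation, were highest, each with a probe set below 0, and the protease gene Mbtps1 (-0.21) and the ubiquitin ligase gene Rnf139 (-0.25) were lowest.

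Among 14 other measured fatty acid synthesis genes, 3 passed 2-fold upward (21.4%, beside 9.43% of all measured genes) and none downward. Their median log2 ratio was 0.38. Aacs, which activates acetoacetate for lipid synthesis, had 258 with P25 and 91.0 with medium (2.84-fold). Slc25a1, the mitochondrial citrate exporter that feeds Acly, had 440 with P25 and 191 with medium (2.30-fold). Fads2, a desaturase of polyunsaturated fatty acids, was dim, with 34.4 with P25 and 14.8 with medium (2.32-fold). The lowest were Tecr at -0.25 and Mlx at -0.42. Of 12 genes that activate fatty acids and assemble them into lipids, none was at least 2-fold higher and 1 was lower, beside 7.22% of all genes. This was Dgat1, which makes triglycerides, with 90.9 with P25 and 208 with medium (2.29-fold lower). Acsl4 (0.95) and Acsl5 (0.80) were highest in that list, and Lpin1 (-0.67) was next to lowest.

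**Figure D4:**
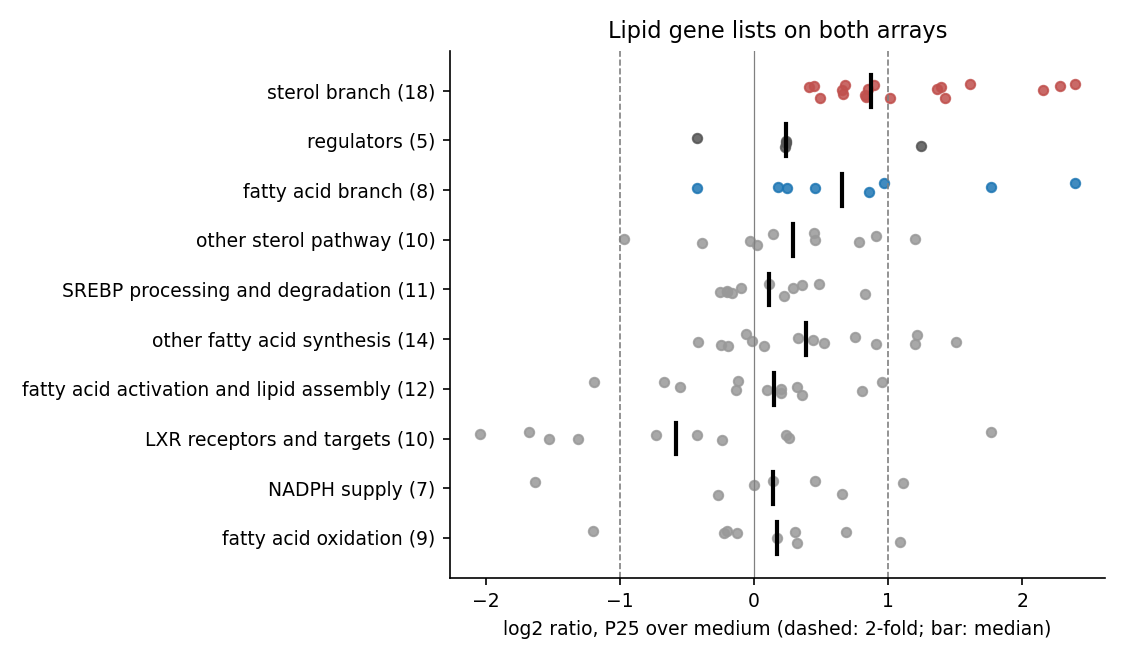
log2 ratio of P25 over medium of each measured gene in the 3 groups and in 7 further lipid lists (points, shifted vertically for visibility), with the median of each as a bar and 2-fold as dashed lines. The medians are 0.87, 0.24 and 0.66 for the sterol branch, regulators and fatty acid branch, and the lowest median is that of LXR receptors and targets at -0.58.

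Genes of the liver X receptors (LXR), which respond to excess sterol and oppose SREBP on cholesterol, were mostly lower. Of 10 measured LXR receptors and targets 4 passed 2-fold downward and 1 upward, beside 7.22% and 9.43% of all measured genes. Their median log2 ratio was -0.58, and 3 of the 10 (Srebf1, Scd1 and Scd2) are also among the 31 genes. Apoe had 606 with P25 and 2502 with medium (4.13-fold lower), and the cholesterol exporter Abca1 had 277 with P25 and 800 with medium (2.89-fold lower). Mylip, a ubiquitin ligase gene, had 612 with P25 and 1520 with medium (2.49-fold lower). The receptor gene Nr1h3 was below the floor with P25 and had 32.9 with medium, at least 3.20-fold lower. The gene higher by 2-fold was Scd2, given above, and the next highest was Lpcat3 at a log2 ratio of 0.26. Macrophage and monocyte markers were mostly lower on the same arrays (below), and their part in these LXR values was not tested.

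Levels on these arrays are those of a mixed population, and fewer cells of a type and less RNA per cell cannot be told apart. For the counts below, 7.22% of all measured genes were at least 2-fold lower. B cell markers were bright, with signals over 9 genes summing to 21542 with P25 and 29974 with medium, and 8 of 9 had a log2 ratio below 0 (1 at least 2-fold lower). Of 8 measured markers of macrophages and monocytes 5 passed 2-fold downward (sums of 527 with P25 and 1274 with medium), with C1qa and C1qc below the floor on both arrays. Among the 5, C1qb and Ccr2 were below the floor with P25. Other probe sets gave log2 ratios of -0.13 for Ccr2 and -0.86 for Csf1r, both under 2-fold. Dendritic cell markers had 2 of 8 at least 2-fold lower and 1 higher (sums of 1852 and 2417), with Xcr1 below the floor. The higher one was Zbtb46, 5.72-fold from dim signals (80.0 with P25, 14.0 with medium), with 1.36 in log2 ratio on its lowest probe set. Of the lower ones Cadm1 was below the floor with P25, and Sirpa had -0.58 on its highest probe set. Most of both dendritic sums came from 2 genes, Irf4 (952 with P25, 792 with medium) and Ccr7 (661 and 1261). Of 9 neutrophil markers 8 were at least 2-fold lower (6920 and 12857). Of 8 named T cell markers Cd3d, Cd3e and Cd4 were below the floor on both arrays, and 2 of the 5 measured, Cd2 and Il7r, passed 2-fold downward (sums over 8 of 454 with P25 and 1298 with medium, or 115 and 158 without Cd2). Cd3g and Cd8a were 1.95-fold and 1.29-fold higher, from dim probe sets. Cell cycle genes were also higher with P25: 9 of 11 passed 2-fold upward (81.8%, beside 9.43% of all measured genes), and their median was 3.71-fold. The part of these differences in the sterol, fatty acid and LXR results was not tested.

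Promoter letters were searched in RefSeq windows (GRCm38.p6) of 250 bases before to 50 after each start, on both strands, and 26 of the 32 genes had at least 1 window. The sterol regulatory element letters TCACNCCAC were found in 1 of the 26, Hmgcs1, with the first base 137 bases before the start. They were found in 1.24% of all 32851 windows and in 1.46% of 10440 measured genes with a window. The NF-Y box CCAAT, bound by a factor known to work beside SREBP, was found in 22 of the 26 (84.6%), in 37.4% of all windows and in 42.4% of 10440 measured genes with a window. It was found in 14 of 15 sterol branch genes, 4 of 5 regulators and 4 of 6 fatty acid genes. All 8 genes past 2-fold with a window held it, and so did 14 of the 17 other measured genes. The count thus did not separate the genes past 2-fold from the rest: Insig2, with a log2 ratio of -0.43, held 3 boxes in one of its windows, and Idi1 held 2.

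The GC box GGGCGG was found in 21 of the 26 genes, in 35.7% of all windows and in 65.1% of measured genes with a window. The E-box CACGTG, which SREBP-1 can bind as well, was found in 6 of the 26, in 7.15% of all windows and in 11.4% of measured genes, and Insig1 was the only gene past 2-fold with one, 101 bases before its start. In Fasn 2 of the 3 NF-Y boxes overlap by 2 bases. No match means only that these letters are not in these windows, and the windows are short.

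**Figure D5:**
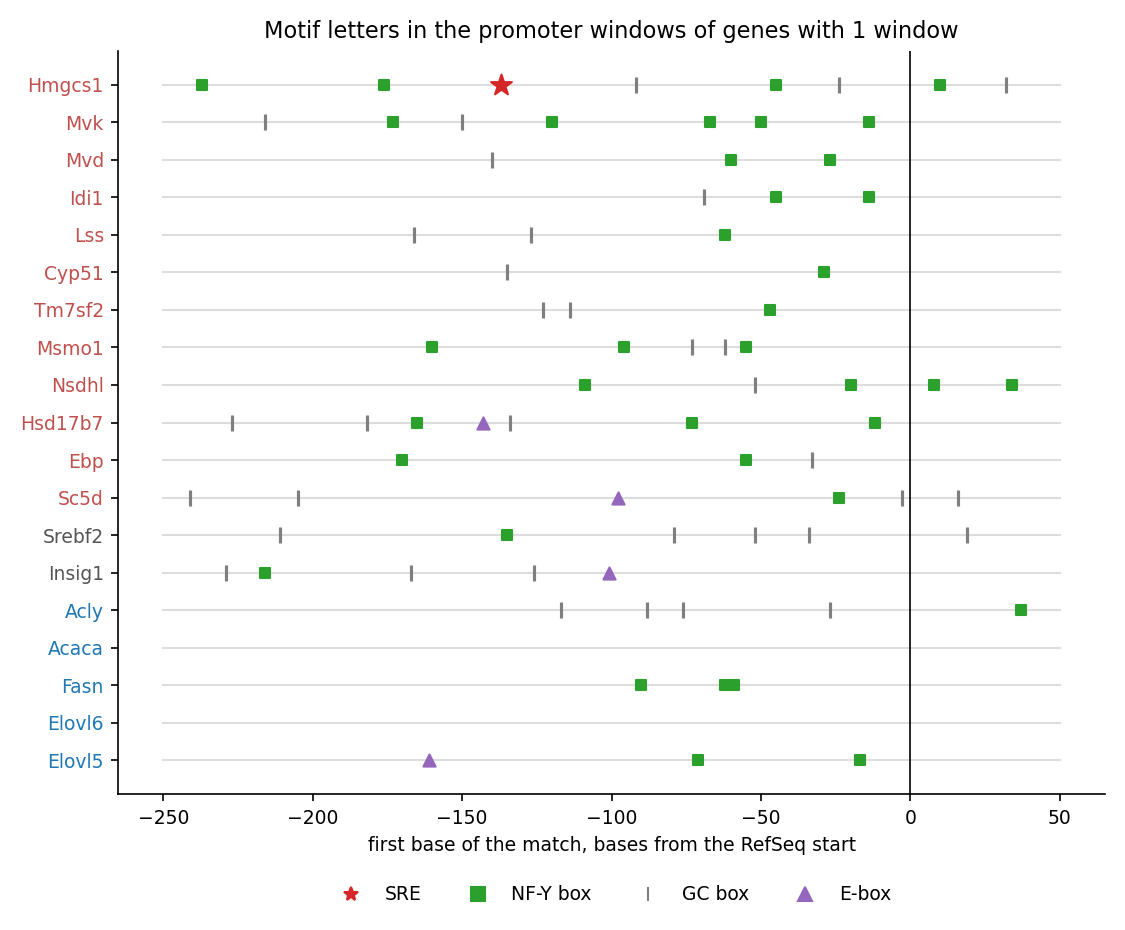
Position of motif matches in bases from the RefSeq start (vertical line at 0) for the 19 measured genes with a single promoter window, in pathway order. Green squares are NF-Y boxes, the red star the sterol regulatory element match of Hmgcs1, grey ticks GC boxes and purple triangles E-boxes; Acaca and Elovl6 show no match.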

How the data were processed

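RNA of 3 pooled experiments per condition was labelled from 1 µg with Affymetrix One-Cycle reagents, per the labels' protocols. The deposited values are MAS5 signal intensities from GCOS, per the submitters' processing notes. They are linear and run from 0.0161 to 12494, and the scaling target and tool versions are unstated in these sources. Subtraction of mismatch signal by MAS5 makes dim ratios less reliable. Of 45037 probe sets other than controls, 34945 carry 1 symbol, 932 several and 9160 none in the platform annotation. Symbols were updated by Entrez number through RefSeq (GRCm38.p6), with 2 unmatched.

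Signals below the 40th percentile of both arrays (10.3) were set to it. A gene was measured when its brightest probe set was above it on at least 1 array, and was counted at 2-fold. Where 1 array is at the floor, the ratio is given as a bound. The members and lists were chosen with earlier results of these data known. All members are named, and of the further lipid lists at least the 2 highest, 2 lowest and those past 2-fold. Of the marker lists only some genes are named, and of the cell cycle list none. Alternatives covered floor, scaling, probe set choice and threshold. Precision is limited by the number of arrays. Python 3.11.15 with pandas 2.3.3 was used, and ratios were tested on simulated data.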

Additional observations from a re-analysis of the deposited data

How the results depend on the processing

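No paired analysis was possible because each condition has 1 array. None of the genes was at least 2-fold lower under any alternative, and 10 of the 11 genes past 2-fold stayed past it wherever they were measured. The exception was Msmo1, at 0.35 when its probe sets were reduced to their median, -0.32 on its plain probe set alone, where the _a_at probe set is left out by construction, and 0.89 after quantile normalization, where Elovl6 passed at 1.08. The median over probe sets also gave Sc5d -0.17 (0.82 on its brightest probe set) and Scd1 0.03 (-0.43). Much of the stability of the 11 genes was fixed in advance. Fdps, Sqle, Insig1 and Fasn have 1 probe set above the floor on both arrays, so probe set choice left their values unchanged. The floor settings left all 11 genes unchanged, and median and spike-in scaling raised every ratio. The count of 11 became 14 with median or spike-in scaling, 10 with the median over probe sets or plain probe sets, 9 among genes with signals of at least 100 on both arrays (an alternative chosen after seeing the data), and 20 at 1.5-fold. The sterol median of 0.87 came to 1.02 after spike-in scaling and 1.01 after median scaling. The fatty acid median of 0.66 came to 0.45 with a floor at the 60th percentile, where the raised floor took Elovl6 to 0.45 (0.97 on the lower floor) and Me1 was not measured, to 0.81 with spike-in scaling and to 0.86 with plain probe sets. The difference between both medians came to 0.42 with the 60th percentile floor. Lss came to 1.06 on its plain probe set. Genes near the floor, Me1 and Elovl6 among them, carry the least signal over background.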

Other observations

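Counts past 2-fold in the next lists were 1 gene in each direction, beside 9.43% higher and 7.22% lower among all measured genes, so they are given as values only. Of 7 measured genes of NADPH supply, 1 passed 2-fold upward with P25 and 1 downward, around a median log2 ratio of 0.14. Tkt, the transketolase of the pentose phosphate pathway, had 6072 with P25 and 2810 with medium (2.16-fold higher), with 0.48 in log2 ratio on its lowest probe set. Idh1, the cytosolic isocitrate dehydrogenase that makes NADPH, had 83.9 with P25 and 260 with medium (3.10-fold lower, with -0.66 on its highest probe set). Pgd, an NADPH-making dehydrogenase of the same pathway as Tkt, was 1.58-fold higher. Me2 was next to lowest at a log2 ratio of -0.27, with probe sets from -1.60 to 0.17.

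Of 9 measured genes of fatty acid oxidation and uptake, 1 passed 2-fold upward and 1 downward, around a median log2 ratio of 0.17. Cpt1a, which carries fatty acids into mitochondria for oxidation, had 210 with P25 and 483 with medium (2.31-fold lower), but another of its probe sets gave 0.21 in log2 ratio. Hadhb, a subunit of the mitochondrial trifunctional protein, had 1602 with P25 and 755 with medium (2.12-fold higher), with -0.64 on its lowest probe set, while its partner subunit gene Hadha had a log2 ratio of 0.17. Cd36 (0.68) was next to highest and Slc25a20 (-0.22) next to lowest.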
